A study of Homo sapiens with 12 samples.

Results

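Ribosome biogenesis factors are the proteins that build ribosomes in the nucleolus and leave the finished particle. The 50 genes described here are nucleolar processing factors and RNA polymerase I subunits, taken as a list of names. That list was chosen with earlier results of these data known. Their RNA was read in the human osteosarcoma line U2OS on Illumina HumanHT-12 bead arrays, as log2 signal of the brightest detected probe of each gene. Of the 50, 46 could be tested, out of 12290 genes with a tested probe. WDR43, GNL3 and DDX18 have no probe under these symbols in the probe table and are not analysed here. The probe of NPM1, a nucleolar chaperone, was detected on 0 of 12 arrays, with signals of 73.3 to 82.2. Of the 46 genes, 43 were detected on all 12 arrays and the others on 8 or more.

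The study asked which genes respond to ST362 and MEB55, synthetic analogues of the plant hormones strigolactones, in cancer cells. Cells received 5 ppm of ST362, 5 ppm of MEB55, or the acetone vehicle alone (the controls), for 6 h or 24 h. The doses were thus matched by mass and not by molarity, and every cell, controls included, was exposed to acetone. Each of the 6 groups has 2 arrays. The labels do not say whether replicates came from separate cultures, while the methods speak of independent experiments, so p-values measure the spread between these arrays.

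Ribosome production starts when RNA polymerase I copies the ribosomal DNA into a long precursor. Small nucleolar ribonucleoproteins (snoRNPs) then guide chemical marks and cuts: box C/D particles methylate riboses with fibrillarin, and box H/ACA particles convert uridines to pseudouridine with dyskerin. The U3 snoRNA, encoded by the SNORD3 genes, is a box C/D RNA that base-pairs with the precursor and is needed for the cuts that free the small subunit rRNA. Large assemblies of UTP, NOP, WDR and DDX proteins fold and trim the subunits. The genes are commonly regulated together with cell growth, and many are known targets of MYC, which binds the E-box CACGTG with its partner MAX.

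That E-box was searched in the promoters of the genes, from 250 bases before to 50 bases after the RefSeq start site (build GRCh38.p14). CACGTG reads the same on both strands, so that 1 search covers both, and no other motif was searched. Promoters were matched by symbol for 43 of the 50 genes, and 16 of the 43 (37.2%) hold it, against 2396 of all 27305 genes in the promoter table (8.77%). In 12 of the 43 (27.9%) it begins after the start site, against 1.12% of all genes. Of 76 other ribosome biogenesis genes with a promoter, 24 (31.6%) hold it, and of 44 cytosolic ribosomal protein genes 3 (6.82%). The 30 bases around it are shown for 6 of the genes whose levels are given here, with the E-box in capitals and each sequence read 5′ to 3′ along the gene:
FBL (chr19:39846356-39846385, minus strand): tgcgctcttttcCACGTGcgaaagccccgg
PES1 (chr22:30591880-30591909, minus strand): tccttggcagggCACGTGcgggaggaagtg
NOP14 (chr4:2963374-2963403, minus strand): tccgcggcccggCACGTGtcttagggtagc
GAR1 (chr4:109815781-109815810, plus strand): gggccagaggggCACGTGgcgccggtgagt
NOC3L (chr10:94362903-94362932, minus strand): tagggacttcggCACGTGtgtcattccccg
RRP9 (chr3:51941892-51941921, minus strand): gggttcagctgcCACGTGagttctgcggcc
The E-box begins 7 bases into the gene in FBL, 14 in PES1, 16 in NOP14, 32 in GAR1 and 20 in NOC3L, and lies across the start site in RRP9, whose first E-box base is at position -5. A match is a description of the letters and not a binding site. The 14 tested genes with the E-box had a median difference of -0.28 (log2) between ST362 and vehicle, and the 26 without it -0.27.

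Array medians of the probe signal ranged from 80.7 to 90.4 and the share of detected probes from 42.7% to 47.4%, with the widest spread of signals on vehicle 6 h replicate 1. Of the 8 arrays of an analogue, 4 correlated best, among all arrays, with the same analogue under the other time label, and 4 with the other analogue under the same time label. Within its own analogue, each of the 8 was closest to an array of the other time label. Whether the time and replicate labels of these arrays are as the cells were treated could not be settled from the arrays. The paper reports raised heat shock genes after the shorter treatment and raised SNORD3 RNAs after the longer treatment. By the labels as given, HSPA6 and SNORD3A were each high on 1 replicate of each time in both analogues. The labels thus do not separate the times in the way the paper describes, and may mix them. They were kept, so values within a time, and changes with time, hold only for the labels as given. On the heat shock gene HSPA6, ST362 6 h replicate 1, ST362 24 h replicate 2, MEB55 6 h replicate 1 and MEB55 24 h replicate 2 stood 5.95 to 7.99 above the vehicle mean (log2), while the other 4 analogue arrays stood 0.2 to 1.06 above it. Replicates of a group therefore differ widely, and each comparison is given within a time and also over both times (4 arrays against 4). The fit over both times leaves out the time label and was chosen with earlier results of these data known. Of the mesenchymal markers VIM, SPARC and COL1A1 were detected on all 12 arrays, RUNX2 on 7, COL1A2 on 1 and TWIST1 on 0. Of the markers of other cell types EPCAM was detected on all 12 (signals 172.8 to 587.3) and CDH1 on 3, and KRT5, PTPRC and CD3E on 0. The 4 tested mesenchymal markers had a median difference from vehicle of -0.57 in ST362 and -0.55 in MEB55, 4 of 4 below 0 in both, with 0 called and 2 and 3 at an unadjusted p under 0.05. EPCAM ranged from -0.83 to 1.14 around the vehicle mean on the analogue arrays, and from -0.69 to 0.73 on the vehicle arrays. The part of these markers in the results was not tested.

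With ST362, the ribosome biogenesis genes stood lower than in vehicle as a group, although 0 of them passed the test. Over both times the difference between ST362 and vehicle was below 0 in 46 of 46 genes, from -0.81 for RRS1 to -0.01 for NHP2, with a median of -0.30 (log2). Over all 12290 tested genes the median was -0.01 and 51.4% were below 0. These genes share arrays and are not independent of each other.

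On single arrays, the median of the 46 genes stood at -0.24 and -0.34 from the vehicle mean in the ST362 6 h replicates, and at -0.27 and -0.29 in the ST362 24 h replicates. It stood at 0.12 and -0.09 in vehicle 6 h and at 0.06 and -0.07 in vehicle 24 h. All 4 ST362 arrays were thus below all 4 vehicle arrays. In MEB55 6 h the median stood at -0.31 in replicate 1 and 0.24 in replicate 2, and in MEB55 24 h at 0.23 in replicate 1 and -0.44 in replicate 2. The MEB55 arrays therefore lay on both sides of vehicle, with replicates of 1 label apart by more than ST362 and vehicle were. The median of all tested genes lay between -0.03 and 0.02 on every array.

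**Figure D1:**
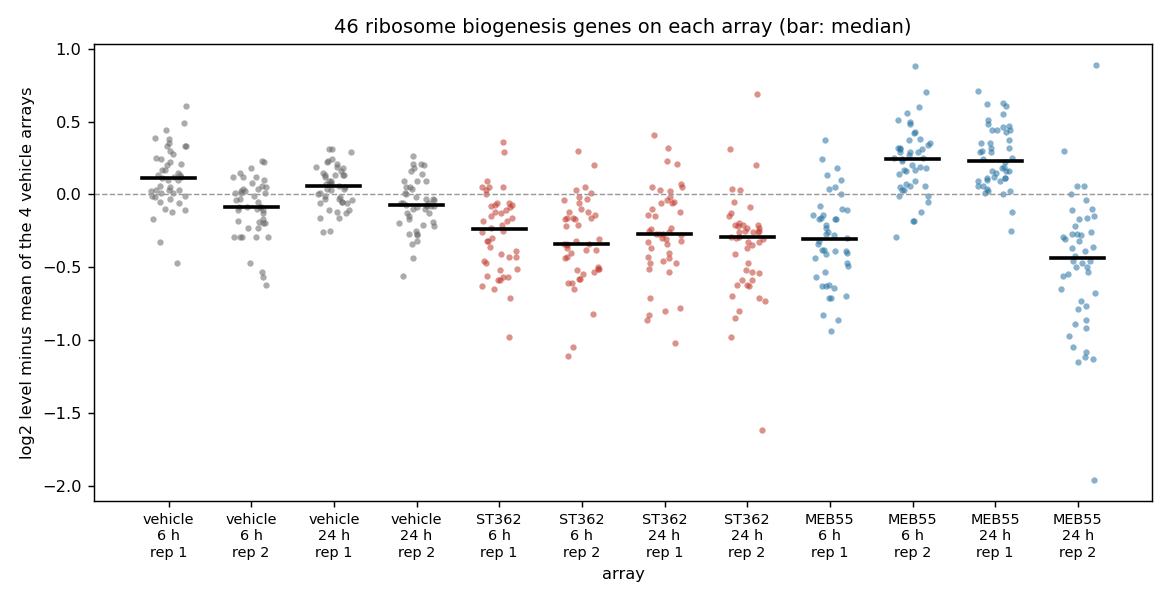
Each point is 1 of the 46 ribosome biogenesis genes, drawn for each of the 12 arrays as its log2 level minus the mean of the 4 vehicle arrays, and bars are medians. The 4 ST362 medians lie between -0.34 and -0.24, and the MEB55 medians lie at -0.31, 0.24, 0.23 and -0.44.

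Counted by gene, 38 and 41 of the 46 lay below the vehicle mean on the ST362 6 h replicates, and 37 and 41 on the ST362 24 h replicates. On MEB55 6 h 39 and 7 did so, and on MEB55 24 h 2 and 42. Of all tested genes 48.8% to 53.6% lay below it on these arrays. In 25 of 46 genes (54.3%) all 4 ST362 arrays lay below the vehicle mean, against 17.7% of all tested genes, and in 0 did all 4 lie above it. For MEB55 all 4 arrays lay below the vehicle mean in 1 gene (2.17%, background 15.6%).

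The test over all probes called 0 of the 46 genes in every comparison. For ST362 against vehicle over both times, limma with Benjamini-Hochberg adjustment called 0.399% of all tested genes lower and 0.366% higher. At an unadjusted p under 0.05, 9 of the 46 were lower (19.6%, background 7.73%) and 0 higher (background 7.77%). The 9 are PES1, FBL, NOP58, NPM3, NOP14, NOP56, PPAN, BOP1 and NCL, with adjusted p from 0.213 for PES1 to 0.37 for NCL. At 6 h alone 0 reached an unadjusted p under 0.05 (background 2.7% lower, 3.38% higher). At 24 h UTP20 and FBL were lower at that p (2 of 46, background 5%) and 0 higher (background 3.43%). The UTP20 signal was close to background and was detected on 11 arrays. In simulated data of the same size, 0% of changes of 0.5 (log2) and 74.5% of changes of 1 were recovered with 4 arrays against 4. The changed probes were drawn from all tested probes. The 46 genes had a wider residual spread than all tested genes, so these shares do not hold for them.

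**Figure D2:**
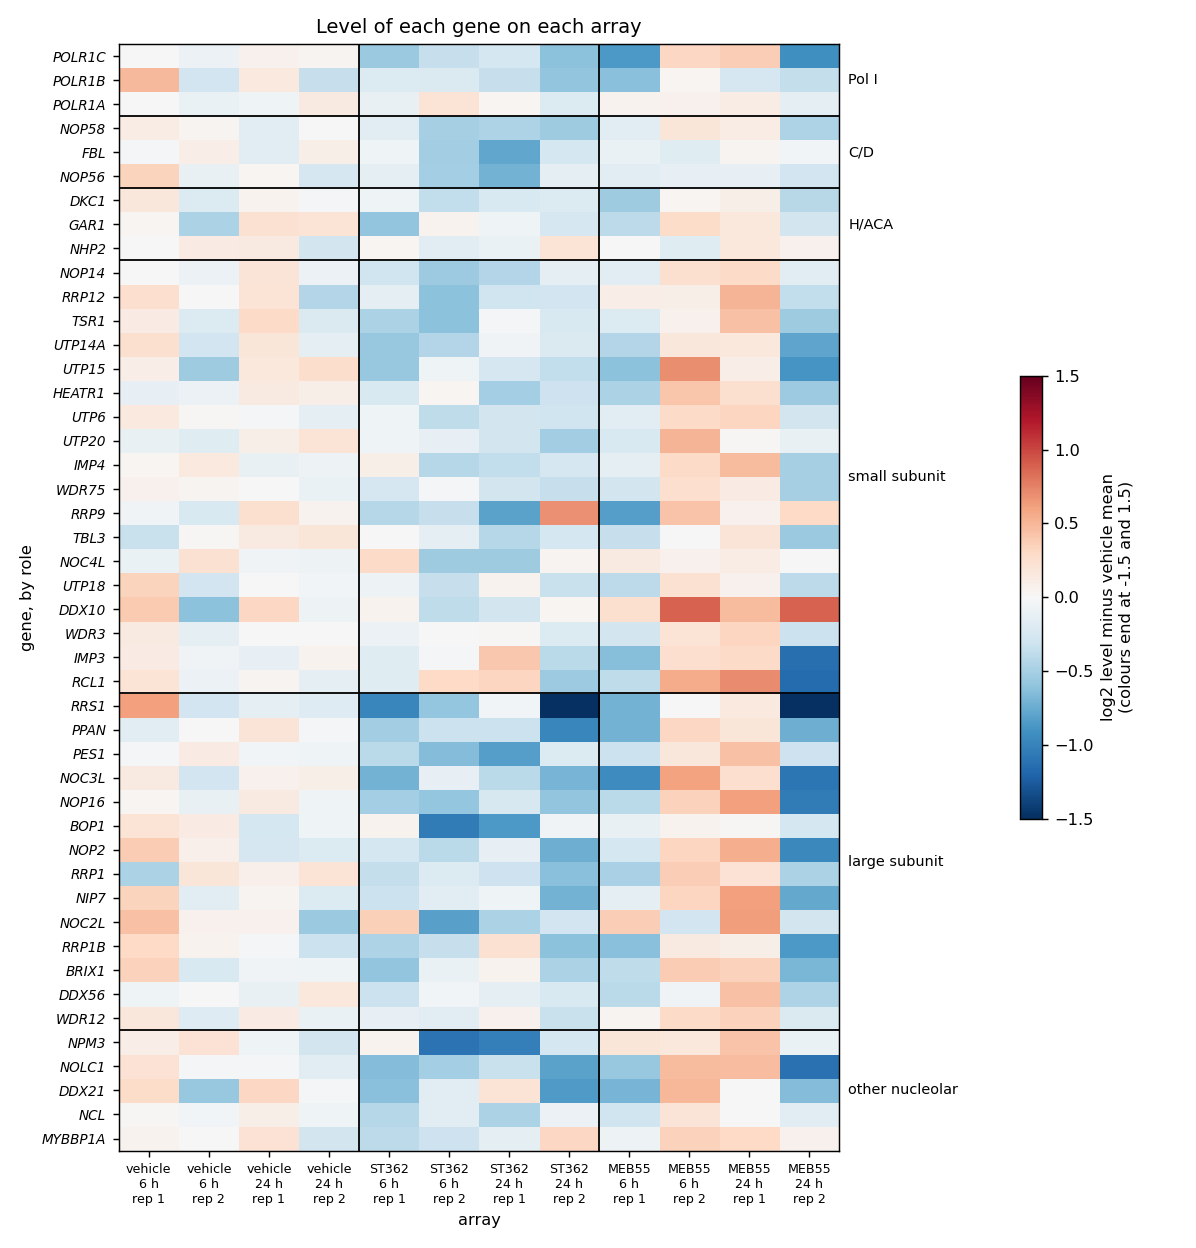
Rows are the 46 genes grouped by role, columns the 12 arrays, and colour is the log2 level minus the mean of the 4 vehicle arrays (blue lower, red higher). The 4 ST362 columns are mostly blue, while in MEB55 2 columns (6 h replicate 1, 24 h replicate 2) are mostly blue and 2 mostly red.

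Of the RNA polymerase I subunits, POLR1C, which RNA polymerase III also uses, separated ST362 from vehicle. Its log2 signal was 9.62 and 9.54 in vehicle 6 h, 9.7 and 9.67 in vehicle 24 h, 9.07 and 9.29 in ST362 6 h, and 9.38 and 9.02 in ST362 24 h. In MEB55 it was 8.78 and 9.94 at 6 h, and 10.01 and 8.71 at 24 h. All ST362 arrays of POLR1C were below all vehicle arrays, and the MEB55 arrays bracketed both. The difference between ST362 and vehicle was -0.45 ± 0.26 (SE, 4 arrays a group, adjusted p = 0.493).

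POLR1B, the second largest catalytic subunit, read 6.5 and 5.73 in vehicle 6 h, 6.16 and 5.68 in vehicle 24 h, 5.8 and 5.79 in ST362 6 h, and 5.67 and 5.43 in ST362 24 h. In MEB55 it read 5.38 and 6.05 at 6 h, and 5.77 and 5.66 at 24 h. The groups overlapped, since the lower vehicle replicates of POLR1B lay among the ST362 arrays (-0.34 ± 0.19 SE, adjusted p = 0.473). POLR1A, the largest subunit, differed by -0.02 ± 0.12 (SE, adjusted p = 0.962), with an interval of -0.28 to 0.23. Its signal lay between 4.41 and 4.81 on all arrays and was detected on 8 of them. A narrow interval so close to background does not show an unchanged level.

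The genes of the 3 box C/D snoRNP proteins all reached an unadjusted p under 0.05 for ST362 against vehicle. NOP58, a core protein of the particle, read 10.96 and 10.9 in vehicle 6 h, 10.7 and 10.85 in vehicle 24 h, 10.69 and 10.35 in ST362 6 h, and 10.39 and 10.33 in ST362 24 h. In MEB55, NOP58 read 10.68 and 11.03 at 6 h, and 10.97 and 10.39 at 24 h. The ST362 and vehicle arrays of NOP58 did not overlap, though by 0.01 only at the nearest pair, and the difference was -0.41 ± 0.15 (SE, adjusted p = 0.245).

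FBL, the fibrillarin methyltransferase, showed another order of arrays. It read 11.02 and 11.15 in vehicle 6 h, 10.89 and 11.14 in vehicle 24 h, 10.99 and 10.54 in ST362 6 h, and 10.27 and 10.79 in ST362 24 h. In MEB55, FBL read 10.95 and 10.87 at 6 h, and 11.09 and 11.01 at 24 h, all within or close to the vehicle range. The lowest FBL signals were those of 6 h replicate 2 and 24 h replicate 1 of ST362, and ST362 6 h replicate 1 lay among the vehicle arrays. The difference from vehicle was -0.40 ± 0.15 (SE, adjusted p = 0.244) and from MEB55 -0.33 ± 0.15 (SE, adjusted p = 0.601). NOP56, the partner of NOP58 in the particle, had the same 2 lowest ST362 arrays (-0.51 and -0.71 from the vehicle mean, against -0.15 and -0.13 on the others), and differed by -0.37 ± 0.15 (SE, adjusted p = 0.313).

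The genes of the box H/ACA proteins differed less. DKC1, the pseudouridine synthase dyskerin, stood at -0.07 and -0.37 from the vehicle mean in ST362 6 h, and at -0.23 and -0.2 in ST362 24 h. In MEB55 it stood at -0.53 and 0.03 at 6 h, and at 0.09 and -0.42 at 24 h, with vehicle between -0.2 and 0.17. DKC1 was thus lowest on a MEB55 array, and ST362 overlapped with vehicle (-0.22 ± 0.15 SE, adjusted p = 0.586).

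GAR1, which binds dyskerin in the particle, stood at -0.59 and 0.05 in ST362 6 h, and at -0.06 and -0.25 in ST362 24 h. In MEB55 it stood at -0.39 and 0.27 at 6 h, and at 0.16 and -0.27 at 24 h, while vehicle ranged from -0.47 to 0.23. No treatment stood outside the vehicle range of GAR1 on more than 1 array (ST362 minus vehicle -0.21 ± 0.20 SE, adjusted p = 0.693). NHP2, another core protein of the particle, was close to vehicle in both analogues (ST362 -0.01, interval -0.29 to 0.27; MEB55 0.01, interval -0.27 to 0.29).

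Among the 18 small subunit factors, all 18 differences between ST362 and vehicle were below 0, with a median of -0.23 and a range of -0.36 to -0.03. NOP14, needed for processing of the small subunit rRNA, had the lowest value. It read 6.87 and 6.79 in vehicle 6 h, 7.06 and 6.79 in vehicle 24 h, 6.57 and 6.32 in ST362 6 h, and 6.44 and 6.73 in ST362 24 h. In MEB55, NOP14 read 6.71 and 7.12 at 6 h, and 7.17 and 6.71 at 24 h. All ST362 arrays of NOP14 were below vehicle but overlapped with MEB55 (-0.36 ± 0.14 SE, adjusted p = 0.287). A dimmer probe of NOP14 differed from vehicle by -0.03 in ST362.

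TSR1, which acts on the late cytoplasmic small subunit, stood at -0.47 and -0.61 in ST362 6 h but at -0.02 and -0.23 in ST362 24 h. In MEB55 it stood at -0.21 and 0.07 at 6 h, and at 0.44 and -0.53 at 24 h. Vehicle ranged from -0.22 to 0.29. The 6 h arrays of ST362 were clear of it for TSR1, 24 h replicate 2 lay 0.01 below it and 24 h replicate 1 within it (-0.33 ± 0.20 SE, adjusted p = 0.519). A dimmer probe of TSR1 differed by -0.02. The U3 protein RRP9 spread most among the ST362 arrays of this role, with -0.43 and -0.35 at 6 h, and -0.8 and 0.69 at 24 h. The genes of the UTP proteins, parts of the complex that assembles on the nascent precursor, differed by -0.18 (UTP18) to -0.32 (UTP14A).

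DDX10, an RNA helicase linked to the small subunit, was the exception in MEB55. It read 9.41 and 8.4 in vehicle 6 h, 9.33 and 8.94 in vehicle 24 h, 9.27 and 9.9 in MEB55 6 h, and 9.49 and 9.92 in MEB55 24 h. In ST362, DDX10 read 9.07 and 8.64 at 6 h, and 8.75 and 9.05 at 24 h. All 4 MEB55 arrays of DDX10 were above all 4 ST362 arrays, and vehicle, with an SD of 0.46, overlapped with both. MEB55 differed from vehicle by 0.62 ± 0.22 (SE, unadjusted p = 0.0119, adjusted p = 0.285), and DDX10 was the only gene of the 46 at an unadjusted p under 0.05 there.

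The 14 large subunit factors had a median of -0.38 between ST362 and vehicle, with 14 of 14 below 0. RRS1, which in yeast brings the small rRNA particle into the large subunit, had the widest range of all 46 genes. It read 9.39 and 8.49 in vehicle 6 h, 8.65 and 8.59 in vehicle 24 h, 7.8 and 8.2 in ST362 6 h, and 8.73 and 7.16 in ST362 24 h. In MEB55, RRS1 read 8.07 and 8.77 at 6 h, and 8.93 and 6.82 at 24 h. RRS1 was lowest on ST362 24 h replicate 2 and MEB55 24 h replicate 2, and ST362 24 h replicate 1 lay among the vehicle arrays (-0.81 ± 0.41 SE, adjusted p = 0.43).

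PES1 and BOP1 form, with WDR12, the PeBoW complex that large subunit maturation needs. PES1 read 7.93 and 8.07 in vehicle 6 h, 7.91 and 7.89 in vehicle 24 h, 7.54 and 7.3 in ST362 6 h, and 7.12 and 7.74 in ST362 24 h. In MEB55, PES1 read 7.63 and 8.12 at 6 h, and 8.39 and 7.64 at 24 h. The vehicle arrays of PES1 were tight (SD 0.08) and all ST362 arrays were below them, 1.44-fold lower on average (-0.53 ± 0.18 SE, unadjusted p = 0.0107, adjusted p = 0.213). This was the smallest p among the 46 genes for ST362 against vehicle.

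BOP1 stood at 0.05 and -1.05 from the vehicle mean in ST362 6 h, and at -0.86 and -0.05 in ST362 24 h. In MEB55 it stood between -0.26 and 0.05 on all 4 arrays, within the vehicle range of -0.26 to 0.2. The lower mean of BOP1 in ST362 thus came from ST362 6 h replicate 2 and ST362 24 h replicate 1 (-0.48 ± 0.22 SE, adjusted p = 0.367). WDR12 differed by -0.13 ± 0.15 (SE, adjusted p = 0.756), and its dimmer probe by 0.03.

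PPAN, a large subunit rRNA processing factor, read 5.89 and 6.07 in vehicle 6 h, 6.25 and 6.04 in vehicle 24 h, 5.54 and 5.74 in ST362 6 h, and 5.75 and 5.09 in ST362 24 h. In MEB55, PPAN read 5.35 and 6.37 at 6 h, and 6.24 and 5.33 at 24 h. All ST362 arrays of PPAN were below vehicle, as were MEB55 6 h replicate 1 and MEB55 24 h replicate 2 (ST362 -0.53 ± 0.23 SE, adjusted p = 0.34). NOP16 also had all ST362 arrays below vehicle (-0.24 to -0.59 from the vehicle mean, with vehicle between -0.11 and 0.13), with adjusted p = 0.483.

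**Figure D3:**
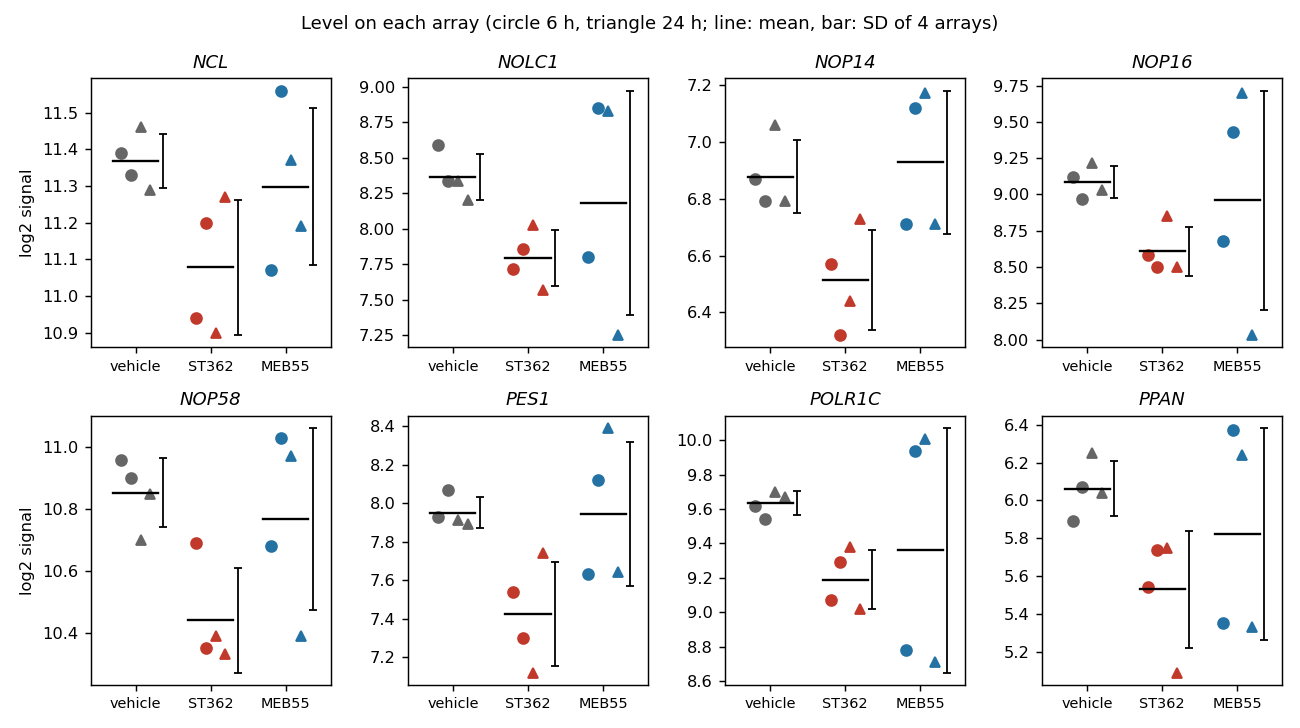
The log2 signal of the 8 genes whose 4 ST362 arrays all lie below their 4 vehicle arrays is drawn for each treatment (circles 6 h, triangles 24 h), with the mean as a line and the SD of 4 arrays as a bar. The SD of the MEB55 arrays is larger than that of the vehicle arrays in each gene, as in NOP16 (8.03 to 9.7), NOLC1 (7.25 to 8.85) and POLR1C (8.71 to 10.01).

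Of the remaining nucleolar proteins, NOLC1, a chaperone that moves snoRNPs within the nucleus, read 8.59 and 8.34 in vehicle 6 h, 8.34 and 8.2 in vehicle 24 h, 7.72 and 7.86 in ST362 6 h, and 8.03 and 7.57 in ST362 24 h. In MEB55, NOLC1 read 7.8 and 8.85 at 6 h, and 8.83 and 7.25 at 24 h. All ST362 arrays of NOLC1 were below vehicle, and in MEB55 the 2 replicates of each time lay on opposite sides of it (ST362 -0.57 ± 0.29 SE, adjusted p = 0.419).

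NPM3, a member of the nucleoplasmin family, read 10.23 and 10.35 in vehicle 6 h, 10.07 and 9.86 in vehicle 24 h, 10.18 and 9.02 in ST362 6 h, and 9.11 and 9.87 in ST362 24 h. In MEB55, NPM3 read 10.31 and 10.29 at 6 h, and 10.56 and 10.03 at 24 h. As for FBL and BOP1, ST362 6 h replicate 2 and ST362 24 h replicate 1 lay apart, and the other 2 ST362 arrays lay within the vehicle range. The difference of NPM3 from vehicle was -0.59 ± 0.23 (SE, adjusted p = 0.284) and from MEB55 -0.75 ± 0.23 (SE, adjusted p = 0.399).

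NCL, nucleolin, an abundant RNA-binding protein of the nucleolus, read 11.39 and 11.33 in vehicle 6 h, 11.46 and 11.29 in vehicle 24 h, 10.94 and 11.2 in ST362 6 h, and 10.9 and 11.27 in ST362 24 h. In MEB55, NCL read 11.07 and 11.56 at 6 h, and 11.37 and 11.19 at 24 h. The ST362 arrays of NCL all lay below vehicle, with 0.29 between the means (SE 0.13, adjusted p = 0.37). In all, 8 of the 46 genes had every ST362 array below every vehicle array (17.4%, against 4.99% of all tested genes) and 0 had every ST362 array above (4.83%). For MEB55 against vehicle these counts were 0 and 0, with backgrounds of 3.86% and 3.93%.

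The 2 ST362 arrays on which a gene was lowest differed between the genes, as they did over all tested genes. In 17 of the 46 the 2 lowest ST362 arrays were 6 h replicate 1 and 24 h replicate 2, the arrays high in HSPA6, as in RRS1, PPAN, NOC3L, NOLC1 and POLR1C (37%, background 25.7%). In 13 they were 6 h replicate 2 and 24 h replicate 1, as in FBL, NOP56, BOP1, PES1 and NPM3 (28.3%, near the background of 24.4%). In the other 16 they were another pair (34.8%, background 49.9%). With MEB55 the matching arrays, 6 h replicate 1 and 24 h replicate 2, were the 2 lowest in 38 of 46 genes (82.6%, background 26.7%), and the other pair in 0. The part of the heat shock arrays in these levels was not tested.

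In MEB55 the replicates of a label were thus further apart than the treatments. These are replicates by the labels as given, which may mix the times. At 6 h replicate 1 was below replicate 2 in 40 of 46 genes, with a median difference of -0.54, and at 24 h replicate 1 was above replicate 2 in 44 of 46, with a median of 0.68. In ST362 the same medians were -0.04 and 0.15, and over all tested genes in MEB55 -0.01 and 0.00. Examples are RCL1, a small subunit factor, at 0.71 and -1.15 from the vehicle mean in the MEB55 24 h replicates, and NOC3L, a large subunit factor, at -0.94 and 0.6 in the MEB55 6 h replicates.

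Against vehicle, MEB55 had a median difference of -0.08 over both times, with 32 of 46 genes below 0 and a range of -0.63 (RRS1) to 0.62 (DDX10). It called 0 genes, with a background of 0.26% lower and 0.301% higher, and at an unadjusted p under 0.05 0 genes were lower (background 6.31%) and only DDX10 higher (background 5.92%). At 6 h alone the median was -0.05 and at 24 h -0.10, and 0 genes reached an unadjusted p under 0.05 in either direction (background 2.44% lower and 2.45% higher at 6 h, 3.08% and 2.64% at 24 h). These medians depended on the arrays used: without MEB55 6 h replicate 1 the 6 h median was 0.20, and without MEB55 24 h replicate 2 the 24 h median was 0.24.

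**Figure D4:**
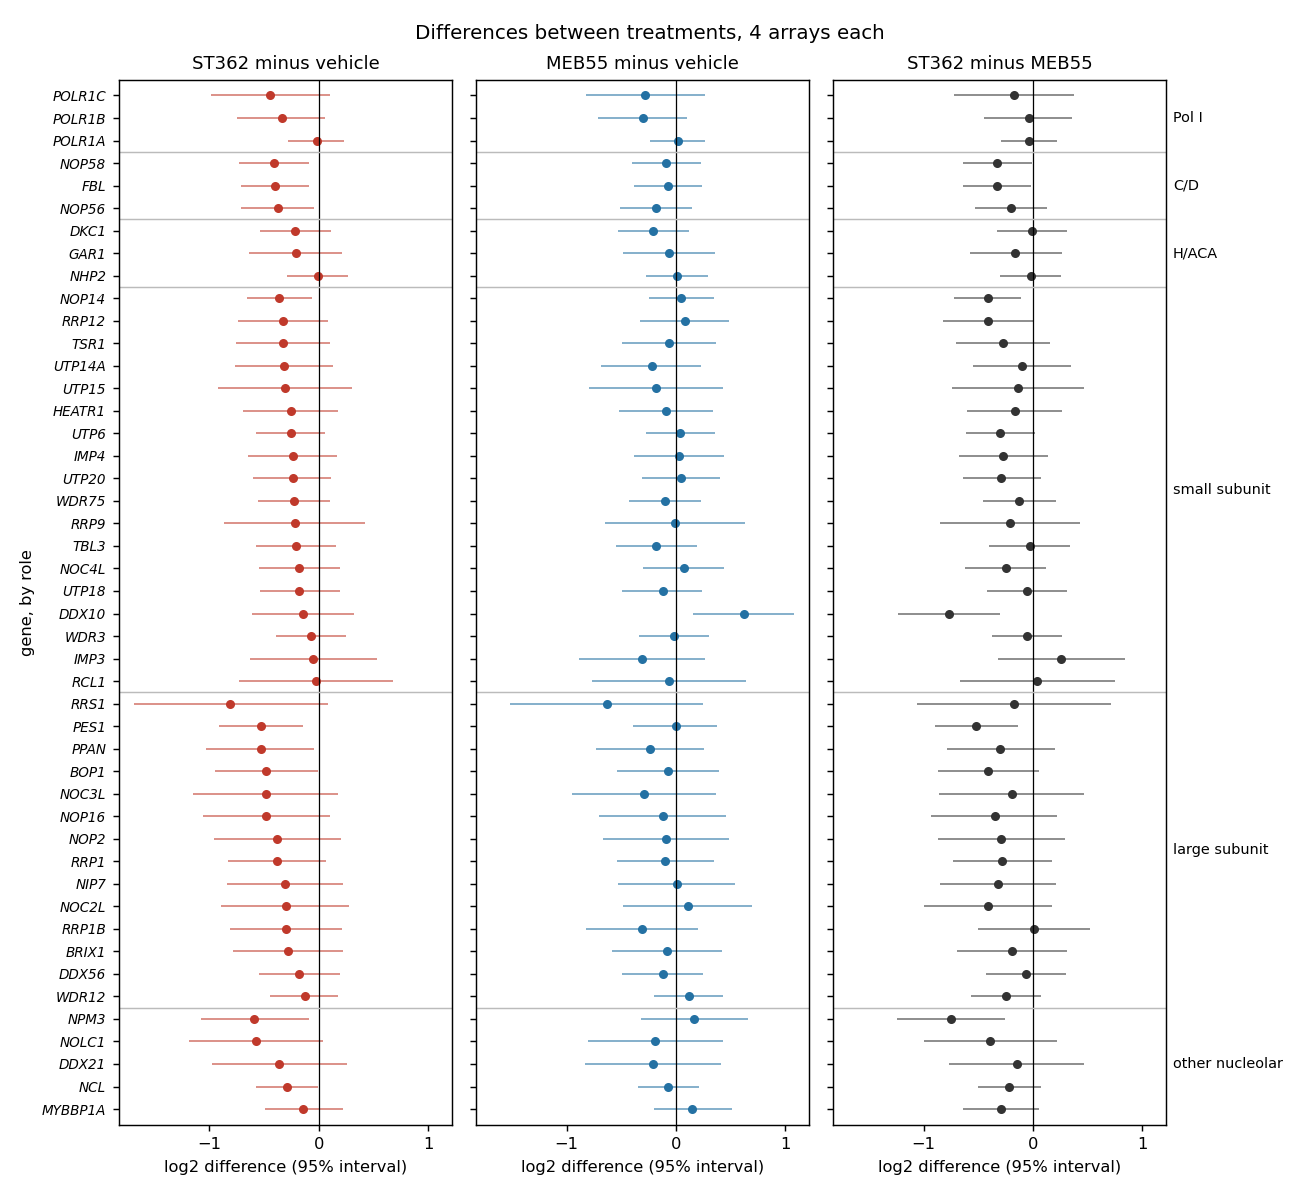
Points are the log2 differences of the 46 genes between treatments over both times (4 arrays a treatment), grouped by role, and lines are 95% intervals. In ST362 minus vehicle all 46 points lie below 0 and 9 intervals exclude 0, while MEB55 minus vehicle has points on both sides, with 1 interval clear of 0 (DDX10).

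The analogues form 1 pair, compared at the same mass dose within each time and over both, with p-values adjusted over all tested probes. ST362 was below MEB55 in 43 of 46 genes over both times, with a median of -0.22 (all tested genes 0.00), and 0 genes were called (background 0.0163% lower, 0.00814% higher). At an unadjusted p under 0.05, 7 were lower in ST362 (15.2%, background 3.78%) and 0 higher (4.8%): DDX10, NPM3, PES1, NOP14, FBL, NOP58 and RRP12, which in yeast helps export both subunits. DDX10 differed most, by -0.77 (interval -1.23 to -0.30, adjusted p = 0.375), and DDX10 was the only gene of the 46 without overlap between the analogues (2.17%, background 1.8%). The analogues did not differ past the test in any of the genes, and intervals stayed as wide as -1.06 to 0.71 in RRS1, so that likeness was not shown either.

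Within a time, ST362 was below MEB55 by a median of 0.24 at 6 h (40 of 46 genes) and 0.19 at 24 h (39 of 46), with 0 genes called. At 24 h FBL, DDX10 and NPM3 reached an unadjusted p under 0.05 (3 of 46, background 1.74%), each with adjusted p = 0.999, and at 6 h 0 did (background 1.11% lower, 1.73% higher). These medians rested on the MEB55 replicate used. Without MEB55 6 h replicate 1 the 6 h median was -0.55, and without MEB55 24 h replicate 2 the 24 h median was -0.55. Across the 12 fits that each left out 1 array, the 6 h median ran from -0.55 to -0.01 and the 24 h median from -0.55 to 0.13.

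By the time labels as given, the ST362 difference from vehicle had a median of -0.31 at 6 h and -0.28 at 24 h, and the change of the effect with time had a median of 0.01, with 22 of 46 below 0. For MEB55 the change had a median of -0.05. As the labels may mix the times, neither median can be read as a change between the times themselves. No gene was called for either change (background 0%), and 0 reached an unadjusted p under 0.05 (background 1.03% below and 0.862% above 0 for ST362, 0.529% and 0.448% for MEB55). For ST362, UTP20, a scaffold of the small subunit precursor, had the smallest p (-0.60, interval -1.31 to 0.12, adjusted p = 0.999). Its signal was close to background on all arrays, from 4.28 to 5.31 (log2).

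The U3 RNAs stood high on 4 of the 8 analogue arrays, 2 of each analogue. SNORD3A stood at 0.15 and 2.42 from the vehicle mean in ST362 6 h, and at 2 and -0.07 in ST362 24 h. In MEB55, SNORD3A stood at 0.15 and 2.5 at 6 h, and at 1.95 and 0.37 at 24 h, with a vehicle SD of 0.3. The arrays high in SNORD3A were thus those low in HSPA6, in both analogues. SNORD3C and SNORD3D stood 2.1 to 2.79 above vehicle on the same 4 arrays and between -0.35 and 0.43 on the others. The U3 genes are nearly identical copies, and whether their probes tell them apart was not tested. The labelling kit primes on poly(A) tails, which mature U3 lacks, so what the probes read was not tested. Over both times SNORD3A differed by 1.12 in ST362 (interval -0.11 to 2.35, adjusted p = 0.43) and by 1.24 in MEB55 (interval 0.01 to 2.47, adjusted p = 0.468).

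Set side by side, the U3-high arrays of MEB55 (6 h replicate 2, 24 h replicate 1) had biogenesis medians of 0.24 and 0.23, and those of ST362 (6 h replicate 2, 24 h replicate 1) -0.34 and -0.27. On the U3-high arrays the analogues therefore stood on opposite sides of vehicle for the RNA of the biogenesis genes and on the same side for SNORD3. On the HSPA6-high arrays the medians were -0.31 and -0.44 in MEB55 and -0.24 and -0.29 in ST362, all below vehicle. These arrays were chosen for description after their values were seen, and no test was made between them.

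**Figure D5:**
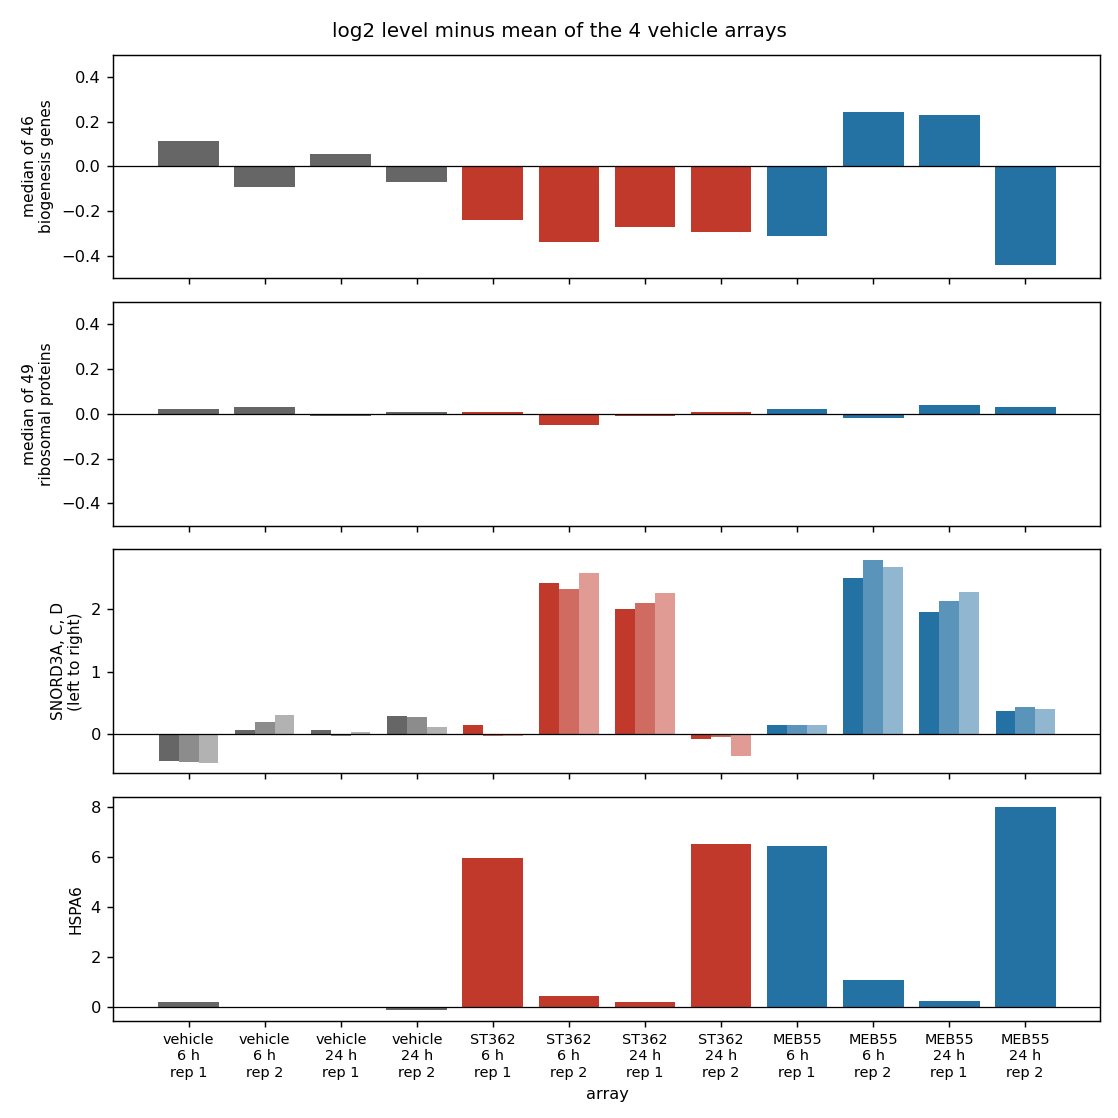
Bars give, for each of the 12 arrays, the log2 level minus the mean of the 4 vehicle arrays for the median of the 46 biogenesis genes, the median of 49 ribosomal protein genes, the 3 SNORD3 RNAs and HSPA6 (each panel with its own scale). SNORD3 is high on 4 analogue arrays, HSPA6 on the other 4, and the ribosomal protein median stays between -0.05 and 0.04.

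The other genes of the pathway lay the same way, to a smaller extent. Of 85 further ribosome biogenesis genes, 63 were below 0 for ST362 against vehicle over both times (74.1%), with a median of -0.16, and 0 were called. At an unadjusted p under 0.05, 11 of the 85 were lower (12.9%, background 7.73%) and 0 higher (background 7.77%). For MEB55 the median was -0.04 and for ST362 against MEB55 -0.15. PWP2, a small subunit scaffold protein, stood at -0.66 and -0.48 in ST362 6 h, and at -0.8 and -0.99 in ST362 24 h, with vehicle between -0.18 and 0.1. All ST362 arrays of PWP2 were clear of vehicle (-0.73 ± 0.22 SE, adjusted p = 0.153), and those of RIOK1, a late small subunit kinase, too (-0.63 ± 0.22 SE, adjusted p = 0.229). POLR1G, a subunit of RNA polymerase I, differed by -0.55 ± 0.21 (SE, adjusted p = 0.261).

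The ribosomal protein genes themselves did not share these levels. Over 49 cytosolic ribosomal protein genes the median difference between ST362 and vehicle was -0.02, with 27 below 0, and array medians stayed between -0.05 and 0.04. For MEB55 the median was 0.02. MYC stood at 0.58 and 0.64 in ST362 6 h, and at 0.8 and -0.24 in ST362 24 h. In MEB55, MYC stood at 0.54 and 0.91 at 6 h, and at 1 and -0.21 at 24 h, with a vehicle SD of 0.28. MYC was thus at or above vehicle on 6 of 8 analogue arrays while the biogenesis genes lay below it in ST362 (MYC 0.44, adjusted p = 0.517, in ST362; 0.56, adjusted p = 0.487, in MEB55). Of the 9 measured genes of the MYC network, MXD3 was lower and MXD4 higher in ST362 at an unadjusted p under 0.05. Their adjusted p was 0.103 and 0.118, and the backgrounds were 7.73% lower and 7.77% higher. In MEB55, 2 of the 9 were lower at an unadjusted p under 0.05 and 1 higher (background 6.31% and 5.92%), with 0 called. MXD3, detected on 11 arrays, also lay below vehicle on all 4 MEB55 arrays (4.4 to 5.38, vehicle 5.58 to 6.04).

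The S phase genes, whose levels follow the share of dividing cells, had a median of -0.37 in ST362 against vehicle over 19 genes, with 18 below 0, and -0.20 in MEB55, with 0 called in either. At an unadjusted p under 0.05, 10 of the 19 were lower in ST362 (52.6%, background 7.73%) and 3 in MEB55 (15.8%, background 6.31%). In MEB55 1 was higher (5.26%, background 5.92%), and in ST362 0 (background 7.77%). On the ST362 arrays where FBL, NOP56, BOP1, PES1 and NPM3 were lowest, the S phase medians stood at -0.59 (6 h replicate 2) and -0.66 (24 h replicate 1), with 19 of 19 genes below the vehicle mean on each. On ST362 6 h replicate 1 and 24 h replicate 2 they stood at -0.06 and -0.20, and on the MEB55 arrays between -0.27 and -0.18. Fewer dividing cells and less RNA per cell cannot be told apart in these arrays, since equal amounts of RNA were labelled. The part of cell division in the biogenesis levels was not tested.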

How the data were processed

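Total RNA of 12 U2OS samples was hybridised to Illumina HumanHT-12 arrays, 1 array per sample, and groups were taken from the sample labels. The deposited intensity values are the mean signal of each probe's beads, exported from GenomeStudio (version not given in the sources used here) without subtracting background or normalizing. The authors also deposited detection p-values, which compare a probe with the negative controls on the same array. A separate table holds linear intensities that match these signals after quantile normalization (largest relative gap 0.366%).

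With neqc (offset 16) of limma 3.58.1 in R 4.3.3, background was removed from the 47313 probes, followed by quantile normalization and log2. A probe was tested if both arrays of any group detected it (p under 0.05), which left 22186, and each gene was read from its brightest tested probe. Symbols came from the platform's probe table. Of the 46 genes, 14 have further tested probes, and in NHP2, NOC4L and WDR12 these differ in sign for ST362 against vehicle. A dimmer probe lay nearer 0 in NOP14 (-0.03), TSR1 (-0.02), POLR1C (-0.21) and NCL (-0.18). It lay further from 0 in others, as in NOP16 (-0.64) and NOP56 (-0.60).

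Comparisons within a time were fitted over all 6 groups with 6 degrees of freedom left, and those over both times by treatment alone with 9. Variances were moderated (eBayes), and p-values adjusted by Benjamini-Hochberg across all tested probes. The median residual SD of the 46 genes was 0.351 and 0.313 (all tested genes 0.24 and 0.227). Precision is limited by the number of arrays. In simulated data with 200 of 22186 probes changed by 1 (log2), the fit recovered 29.5% for ST362 against vehicle at 6 h and 74.5% over both times. These probes were drawn from all tested probes and varied independently, so the shares are not those of the 46 genes.

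The genes, the lists and the fit over both times were chosen with earlier results of these data known. Levels on every array were given for the 2 genes per role with the largest difference between ST362 and vehicle, and for others that did not overlap or had a small p, the latter chosen after their values were seen. Alternatives covered background correction, offset (50), normalization, probe filter, variance model, arrays in the fit, probes of a gene, blocks, the methods' cutoff and leaving out each array. Intervals are 95%. Promoter sequences are from RefSeq. SNORD3B-1 and SNORD3B-2 are not analysed here.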

Additional observations from a re-analysis of the deposited data

How the results depend on the processing

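The count of 0 genes called held in every comparison under all alternatives run, every fit that left out 1 array included. The methods' cutoff (unadjusted p under 0.05, more than 2-fold, signal of at least 100 in any group compared) could call none. The differences of the 46 genes ran from -0.94 to 0.67 (log2) over all comparisons, short of 2-fold. Most of the 31 results on named genes rest on genes chosen by their differences in these same data. Kept directions and calls were thus likely beforehand. The 31 results gave 836 values under the alternatives, of which 834 kept direction and call and 0 reversed. The other 2 are PWP2 for ST362 against vehicle, at -0.73 with only the arrays compared and -0.73 without MEB55 24 h replicate 2, where it passed the test. Sizes moved more: under other processing PWP2, detected on 11 arrays, ran from -0.74 to -0.23. POLR1G ran from -0.55 to -0.21 and PPAN from -0.54 to -0.22, while RRS1 ran from -0.89 to -0.64 and PES1 from -0.60 to -0.38. The median of the 46 genes for ST362 against vehicle was smaller with no background correction (-0.20 at 24 h, -0.21 over both times) and with the authors' series values (-0.21 and -0.22), and the cause was not tested. With 75th percentile scaling 2 genes of ST362 lay below all MEB55 arrays in place of 1.

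Leaving out 1 array, the medians ran from -0.42 to -0.22 (6 h), -0.37 to -0.21 (24 h) and -0.34 to -0.24 (both times) for ST362 against vehicle. For MEB55 against vehicle they ran from -0.31 to 0.20, -0.42 to 0.24 and -0.19 to 0.05, and for ST362 against MEB55 from -0.55 to -0.01, -0.55 to 0.13 and -0.35 to -0.11. The genes of ST362 below all vehicle arrays numbered 8 to 12, and 6 to 11 under other processing. Those of MEB55 above vehicle numbered 0 to 1, of MEB55 below vehicle 0 to 1, and of ST362 below MEB55 1 to 4 (3 without ST362 6 h replicate 1, 4 without ST362 24 h replicate 2, 3 without MEB55 24 h replicate 2). Apart from renewed normalization and probe selection, leaving out 1 array can only add to such counts. Their lower ends therefore do not show stability.

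Replicate numbers do not pair the samples across all groups: same-numbered samples deviated together (correlation over 0.1) in 2 of 6 pairs of groups at 1 time, both ST362 with MEB55 (0.49 at 6 h, 0.48 at 24 h), and opposite (under -0.1) in 2, both with vehicle. With the replicate block, ST362 against vehicle over both times called 36 genes lower and 40 higher in place of 49 and 45, and 0 of the 46, whose smallest adjusted p was 0.236. With time and replicate as a block it called 56 and 77, and again 0 of the 46 (smallest adjusted p 0.163). For ST362 against MEB55 the replicate block called 0 of the 46 as well (smallest adjusted p 0.396 over both times). With 4 arrays a treatment, simulated differences of 0.5 (log2), larger than the median here, were recovered in 0% of probes drawn from all tested ones.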
